A study of Rattus norvegicus with 10 samples.

Results

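The 10 long non-coding RNAs (lncRNAs) described here are those that the study lists as the leading down-regulated lncRNAs in the aorta of rats given lipopolysaccharide (LPS). They were found by their array names among 9374 lncRNA features, on an array of 38804 features in all. LPS is a component of the outer membrane of gram-negative bacteria and is used to provoke sepsis in animals. Male Wistar rats, 8 weeks of age, received LPS at 10 mg/kg in saline (LPS group, n = 5) or saline alone (control group, n = 5), both by intraperitoneal injection. The aortas were collected 24 h later, and the RNA of each rat was labelled with Cy3 and hybridised to 1 single-colour Agilent array. The whole vessel was used, so a lower signal from fewer cells of a type and from less RNA per cell cannot be told apart.

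LncRNAs are transcripts of considerable length with no recognised protein product. Some act on the transcription of neighbouring genes, some serve as scaffolds for proteins, and some bind microRNAs, and for most of those in the rat no function is established. In GRCr8, the current RefSeq assembly of the rat, 2 of the 10 were found by gene number. XR_344417 is the transcript of LOC102550008 on chromosome 2, which is annotated as a lncRNA and whose nearest coding neighbours are Rarres1, a gene induced by retinoic acid, and Mfsd1, which encodes a lysosomal membrane transporter. XR_086340 is listed for LOC301444 on chromosome 9, which carries the symbol Dbi-ps3 and is annotated as a transcribed pseudogene beside Fam117b. Dbi encodes the acyl-CoA-binding protein, which carries fatty acids in their activated form, and whether the array feature also reads Dbi mRNA was not tested. The other 8 are listed on chromosomes 1 (ENSRNOT00000086932 and XR_590074), 7 (ENSRNOT00000083119 and ENSRNOT00000079370), 9 (XR_589510), 14 (ENSRNOT00000079309) and 18 (ENSRNOT00000083801 and XR_597034), and were not looked up by position.

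The sequences of the array features were not used here. The PCR primers that the study designed show which transcripts are meant, and those of 5 lncRNAs are given because the results turn on them. The first 4 form the 2 pairs whose signals moved most closely together between rats, and XR_589510 is the lncRNA whose signal ran apart from the others. All are written 5′ to 3′.
ENSRNOT00000083801 forward primer: ccttctcctggttctggtatta
ENSRNOT00000083801 reverse primer: catcttttctcaacagagtctcac
ENSRNOT00000079370 forward primer: ttgagtgaagagaagtctggca
ENSRNOT00000079370 reverse primer: cgtgatttttgaaactgagtgtg
ENSRNOT00000079309 forward primer: tctgaaactgccaggaagaa
ENSRNOT00000079309 reverse primer: ggtgctgatttggtactaaagg
XR_344417 forward primer: aagctaacatcccactacatgc
XR_344417 reverse primer: ggtagcccaagaggaaatca
XR_589510 forward primer: tgaatgctgtctggggctaac
XR_589510 reverse primer: gctgttggcacattctgatctt
The primers of ENSRNOT00000083801 and ENSRNOT00000079370 shared no stretch longer than 6 bases on either strand. The same limit of 6 bases held for the primers of ENSRNOT00000079309 and XR_344417. Primers cover only a small part of a transcript, so these values do not say how alike the transcripts are. With its primers, the study ran qRT-PCR on all lncRNAs of the list. The down-regulated ones it names as matching the array are ENSRNOT00000079309, ENSRNOT00000079370, ENSRNOT00000086932, XR_086340 and XR_344417. ENSRNOT00000083801 and XR_589510, whose primers are printed above, are not among those named. The qRT-PCR values were not used here.

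For XR_344417, the RefSeq sequence around the start of LOC102550008 was also at hand, from 250 bases before the start to 50 bases after it, and it is given as the position of the gene in the genome. It lies at chr2:154125376-154125675 on the plus strand of GRCr8, and 49.7% of its bases are G or C.
LOC102550008 promoter: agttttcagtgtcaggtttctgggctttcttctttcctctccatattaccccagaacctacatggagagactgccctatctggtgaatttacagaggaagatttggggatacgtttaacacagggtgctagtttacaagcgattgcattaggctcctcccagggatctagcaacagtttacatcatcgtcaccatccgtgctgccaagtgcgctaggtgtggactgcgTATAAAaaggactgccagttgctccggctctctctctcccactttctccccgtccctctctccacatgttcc
The capitals mark the letters TATAAA, which begin 22 bases before the annotated start. TATAAA was found 1 time on the strand of the gene and 0 times on the opposite strand. Of 33469 rat promoter windows of the same length, 14.2% hold these letters on either strand and 8.80% hold them on the strand of the gene, so the match is common and is a description only.

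The signal is given as log2 intensity minus the 75th percentile of log2 intensity on the same array, so that 0 is the level of that percentile and 1 unit is a doubling. Each lncRNA had 1 spot per array, and all 10 were well above background on all 10 arrays, with intensities between 23.3 and 23100. None of these spots was marked as an outlier. The error that the scanner software assigns to them was at most 12.1% of the signal. The arrays of LPS rats 1 and 3 differed by less than the spot error (0.984 times the squared difference that this error gives), as did those of control rats 15 and 17 (0.778 times), whereas the other pairs differed by at least 4.01 times. Each of these pairs was therefore treated as a single sample by its mean, so that the LPS and control groups held 4 samples each. Whether the arrays of such a pair came from separate rats was not tested. The arrays were read in 3 scans. Scan 1 held 4 control arrays, scan 2 held LPS rats 1, 3 and 5 with control rat 20, and scan 3 held LPS rats 6 and 7.

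The list was chosen on the difference between the LPS and control groups, so that difference is described without a test. On the 8 samples, the log2 difference, LPS minus control, ranged from -1.97 for ENSRNOT00000086932 to -1.46 for XR_086340. The median over the 10 was -1.77, beside 0.14 over the 7462 lncRNA features that were well above background on at least 5 arrays. In a limma fit over all tested features, 0 of the 10 passed an adjusted p of 0.05 with a fold above 1.5 (Benjamini-Hochberg), where 0.0134% of the tested lncRNA features were called lower. At the same p without adjustment, 9 of the 10 passed, and 2.02% of the tested lncRNA features did. When the 10 arrays were fitted singly, 3 of the 10 lncRNAs were called by limma, and 0.228% of the tested lncRNA features were called lower. All 4 LPS samples lay below all 4 control samples for 4 of the 10, and for 1.18% of the tested lncRNA features. That number was 7 without LPS rat 7, where the share was 1.66%, and 7 without control rat 16, where it was 3.77%. Over 10 separate arrays it was 4, and the share was 0.71%. In the methods' t-test without adjustment, 5 of the 10 passed on the 8 samples and 10 on 10 arrays, beside 1.07% and 1.98% of the tested lncRNA features. With the scan as a block in limma, 1 of the 10 passed without adjustment, beside 1.29%. Since the same difference put the lncRNAs on the list, nothing is read from these counts.

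The edge of the list was looked at with the authors' processed values, over 10 arrays. Ranked by fold among the lncRNA features and those of ultraconserved elements that had an unadjusted p below 0.05 in the methods' t-test, the 10 stood between rank 7 and rank 32. The weakest, XR_086340, was 2.94-fold lower, and the next feature outside, ASRNV20029745V3, was 2.92-fold lower. In that ranking 22 features that are not on the list stood above XR_086340, and 13 of them were well above background on all arrays. The 10 are therefore not the 10 with the largest fold in these values. The study speaks of the most significant lncRNAs. Ranked instead by the p of the methods' t-test among the 213 such features lower by more than 1.5-fold, the 10 stood between rank 17 and rank 152.

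**Figure D1:**
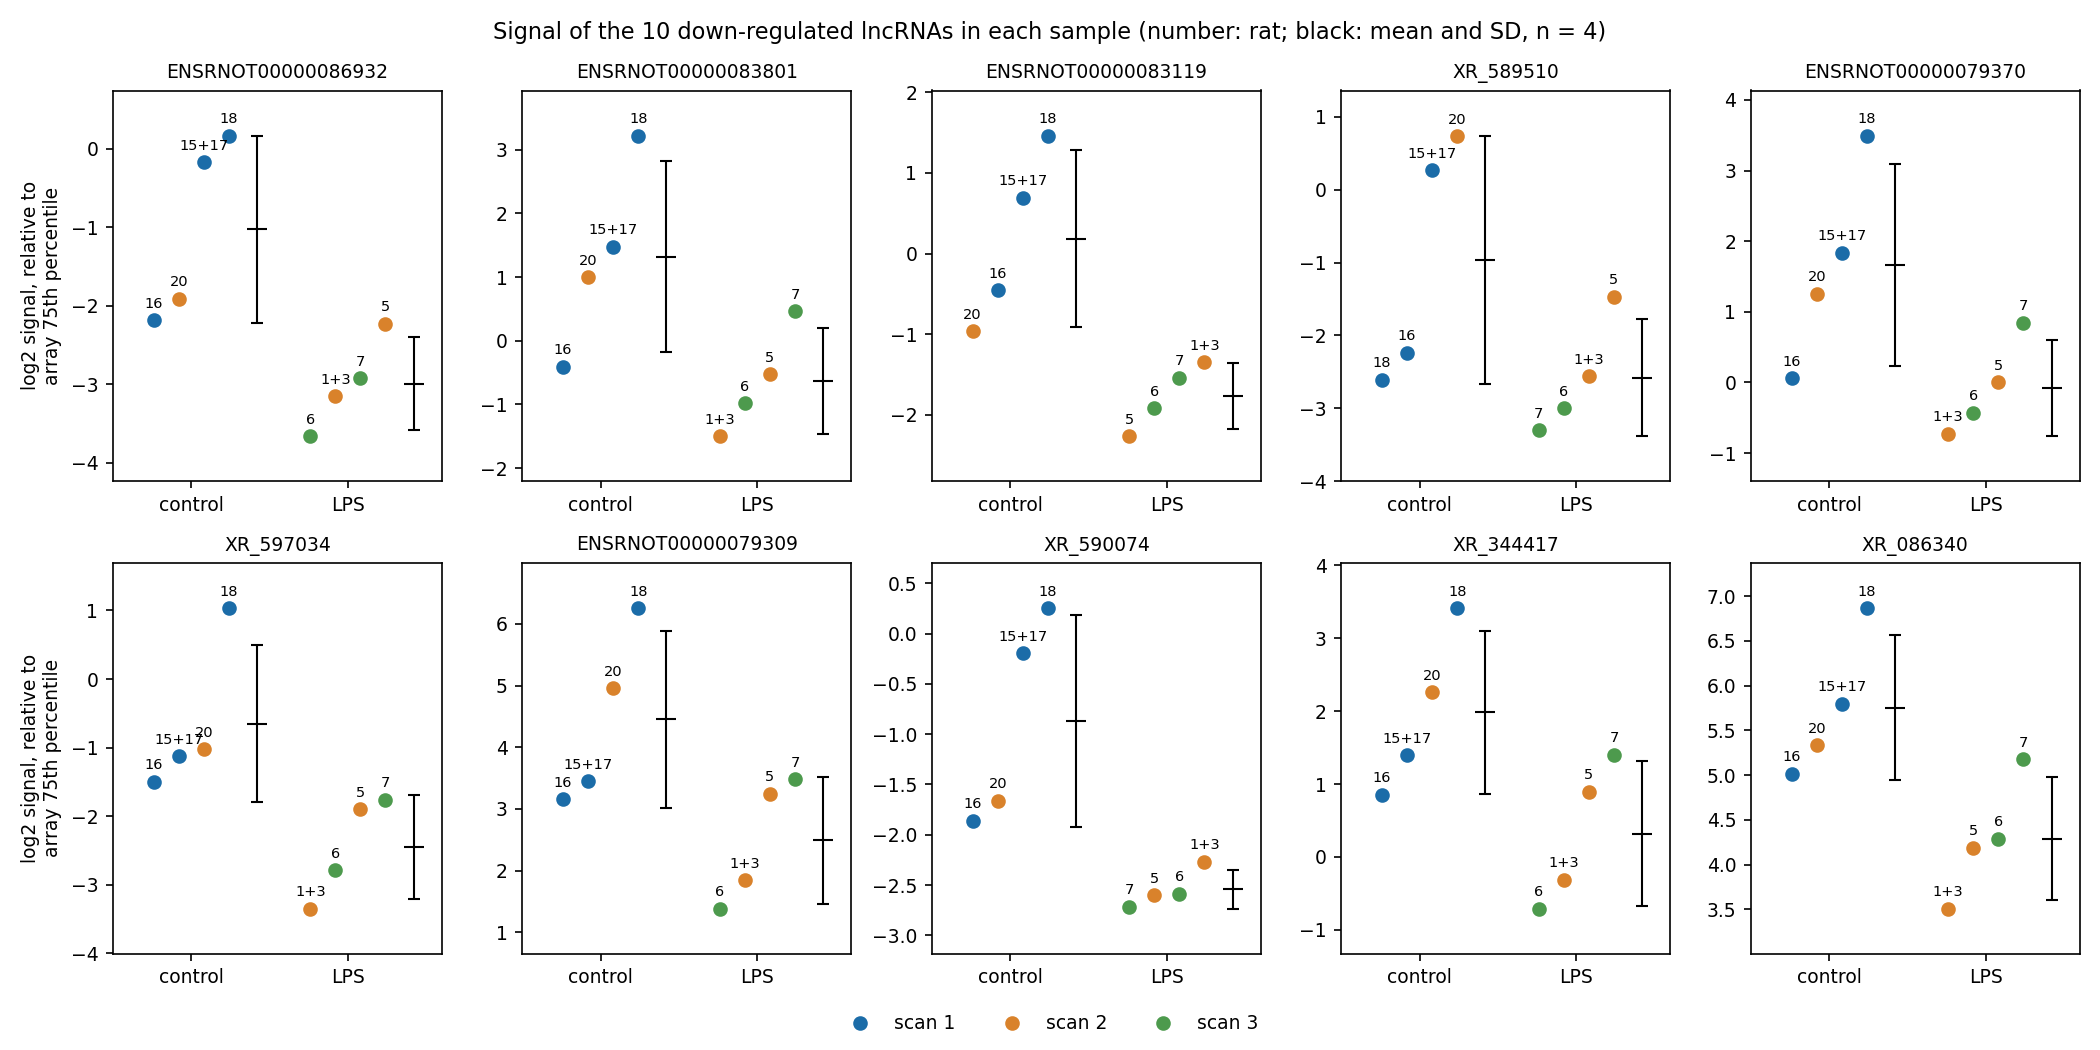
Signal of each lncRNA (y axis, log2 intensity minus the 75th percentile on that array) in the 4 control and 4 LPS samples, placed by level within a group, numbered by rat and coloured by scan, with the group mean and SD in black. Control rat 18 is the top control point in 9 of the 10 panels, and the groups are apart in the panels of ENSRNOT00000086932, ENSRNOT00000083119, XR_597034 and XR_590074.

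The 4 lncRNAs whose groups did not overlap are ENSRNOT00000083119, XR_590074, XR_597034 and ENSRNOT00000086932. ENSRNOT00000083119 had log2 signals of -1.35 in LPS rats 1 and 3, -2.26 in rat 5, -1.92 in rat 6 and -1.54 in rat 7, and of 0.69 in control rats 15 and 17, -0.45 in rat 16, 1.46 in rat 18 and -0.96 in rat 20. Its means were -1.77 ± 0.41 (SD, n = 4) in the LPS group and 0.19 ± 1.1 (SD, n = 4) in the control group. The lowest control sample, rat 20, stood 0.39 above the highest LPS sample, and that gap was narrower than the control SD.

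XR_590074 had log2 signals of -2.27, -2.60, -2.58 and -2.71 in LPS rats 1 and 3, 5, 6 and 7, and of -0.20, -1.86, 0.25 and -1.66 in control rats 15 and 17, 16, 18 and 20. Its LPS samples were the most alike of the 10 lncRNAs, with a mean of -2.54 ± 0.19 (SD, n = 4), against -0.87 ± 1.05 (SD, n = 4) in the control group. The control samples fell into a high level in rats 15 and 17 and rat 18 and a level near that of the LPS group in rats 16 and 20. The gap between the groups was 0.41.

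ENSRNOT00000086932 showed the same division of the control samples, with log2 signals of -0.17 in rats 15 and 17 and 0.17 in rat 18, but of -2.18 in rat 16 and -1.91 in rat 20. In LPS rats 1 and 3, 5, 6 and 7 it stood at -3.15, -2.23, -3.66 and -2.93. The means were -2.99 ± 0.60 (SD, n = 4) after LPS and -1.02 ± 1.19 (SD, n = 4) in the control group. Rat 5 of the LPS group and rat 16 of the control group were 0.05 apart, which is far less than the spread within either group.

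XR_597034 was set apart by control rat 18. Its log2 signal was 1.03 in that rat, against -1.13, -1.50 and -1.03 in control rats 15 and 17, 16 and 20. In LPS rats 1 and 3, 5, 6 and 7 it was -3.35, -1.90, -2.79 and -1.76, a mean of -2.45 ± 0.75 (SD, n = 4), against -0.66 ± 1.15 (SD, n = 4) in the control group. The gap between the groups was 0.26.

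For the other 6 lncRNAs the groups overlapped. ENSRNOT00000083801 had log2 signals of -1.50, -0.53, -0.98 and 0.46 in LPS rats 1 and 3, 5, 6 and 7, and of 1.48, -0.41, 3.22 and 1.0 in control rats 15 and 17, 16, 18 and 20. Control rat 16 lay among the LPS samples, below LPS rat 7, and the other 3 control samples lay above every LPS sample. The control samples covered 3.63 log2 units, a 12.4-fold range, and the LPS samples 1.96 units.

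ENSRNOT00000079370 repeated this order of samples almost exactly. Its log2 signals were -0.73, 0.01, -0.43 and 0.84 in LPS rats 1 and 3, 5, 6 and 7, and 1.84, 0.06, 3.5 and 1.25 in control rats 15 and 17, 16, 18 and 20. The group means were -0.08 ± 0.68 (SD, n = 4) and 1.66 ± 1.43 (SD, n = 4), and those of ENSRNOT00000083801 were -0.63 ± 0.83 and 1.32 ± 1.5 (SD, n = 4 each). Without control rat 18, the log2 difference of ENSRNOT00000079370 was -1.13 instead of -1.74. The 2 transcripts are listed on different chromosomes, 7 and 18.

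XR_086340, the Dbi-ps3 transcript, had the smallest difference of the 10 lncRNAs and the smallest control SD. Its log2 signals were 3.51, 4.19, 4.29 and 5.18 in LPS rats 1 and 3, 5, 6 and 7, and 5.80, 5.02, 6.87 and 5.34 in control rats 15 and 17, 16, 18 and 20. LPS rat 7 lay above control rat 16, and the remaining 3 LPS samples lay below every control sample. The means were 4.29 ± 0.69 (SD, n = 4) and 5.76 ± 0.81 (SD, n = 4).

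ENSRNOT00000079309 had log2 signals of 1.85, 3.25, 1.39 and 3.48 in LPS rats 1 and 3, 5, 6 and 7, and of 3.45, 3.15, 6.25 and 4.95 in control rats 15 and 17, 16, 18 and 20. LPS rats 5 and 7 thus stood at the level of control rats 15 and 17 and rat 16, while LPS rats 1 and 3 and rat 6 were lower. The LPS SD of 1.03 (n = 4) was the largest of the 10, and the control SD was 1.44 (n = 4).

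XR_344417 gave the same picture. Its log2 signals were -0.31, 0.90, -0.71 and 1.41 in LPS rats 1 and 3, 5, 6 and 7, and 1.40, 0.85, 3.41 and 2.26 in control rats 15 and 17, 16, 18 and 20. LPS rats 5 and 7 again overlapped with control rats 15 and 17 and rat 16. The means were 0.32 ± 0.995 (SD, n = 4) after LPS and 1.98 ± 1.12 (SD, n = 4) in the control group.

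XR_589510 differed from the rest in the order of its control samples. Its log2 signals were 0.27 in control rats 15 and 17 and 0.73 in rat 20, but -2.24 in rat 16 and -2.61 in rat 18. In LPS rats 1 and 3, 5, 6 and 7 they were -2.56, -1.47, -3.0 and -3.30. LPS rat 5 exceeded control rats 16 and 18, LPS rats 1 and 3 exceeded control rat 18 by a small margin, and the control SD of 1.71 (n = 4) was the largest of the 10. The log2 difference of -1.62 was smaller than that SD, and it was -1.05 without control rat 20.

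The spread was wider in the control group than in the LPS group for all 10 lncRNAs, whose control SDs ranged from 0.81 to 1.71 and LPS SDs from 0.19 to 1.03. Among the tested lncRNA features, 70.6% had the larger SD in the control group. Control rat 18 was the highest control sample for 9 of the 10 lncRNAs, all but XR_589510. It was the highest for 21.2% of the tested lncRNA features, and for 61.3% of the 111 whose log2 difference was below -1. Control rat 16 was the lowest control sample for 8 of the 10, all but ENSRNOT00000083119 and XR_589510, beside 45.3% of the tested lncRNA features and 55% of those 111. LPS rat 7 was the highest LPS sample for 6 of the 10, beside 10.3% of the tested features and 34.2% of those 111. A high control sample raises the difference that the list was chosen on, so these counts are descriptions.

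Scan 2 was the only scan with both groups, and within it 2 LPS samples faced control rat 20. That rat exceeded both LPS samples for all 10 lncRNAs, beside 20% of the tested lncRNA features. The arrays of scan 2 are among those on which the list was chosen. Nothing is therefore read from this count or from the sign of the differences within the scan. The difference within the scan, LPS minus control, had a median of -1.60 and ranged from -2.75 for XR_589510, more than 1.5 times its value over the 8 samples, to -0.77 for XR_590074. It was -0.78 for ENSRNOT00000086932 and -0.84 for ENSRNOT00000083119, each smaller by more than 1.5 times than the value over the 8 samples, as for XR_590074. For XR_597034, the fourth lncRNA without overlap, it was -1.60. It was -2.01 for ENSRNOT00000083801, -1.61 for ENSRNOT00000079370, -2.40 for ENSRNOT00000079309, -1.97 for XR_344417 and -1.49 for XR_086340. The within-scan values rest on 1 control sample. In the limma fit with the scan as a block, which gives the same differences and takes its spread from all 3 scans, their standard errors were between 0.767 and 1.41. For the arrays of scans 1 and 3, scan and group cannot be told apart.

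**Figure D2:**
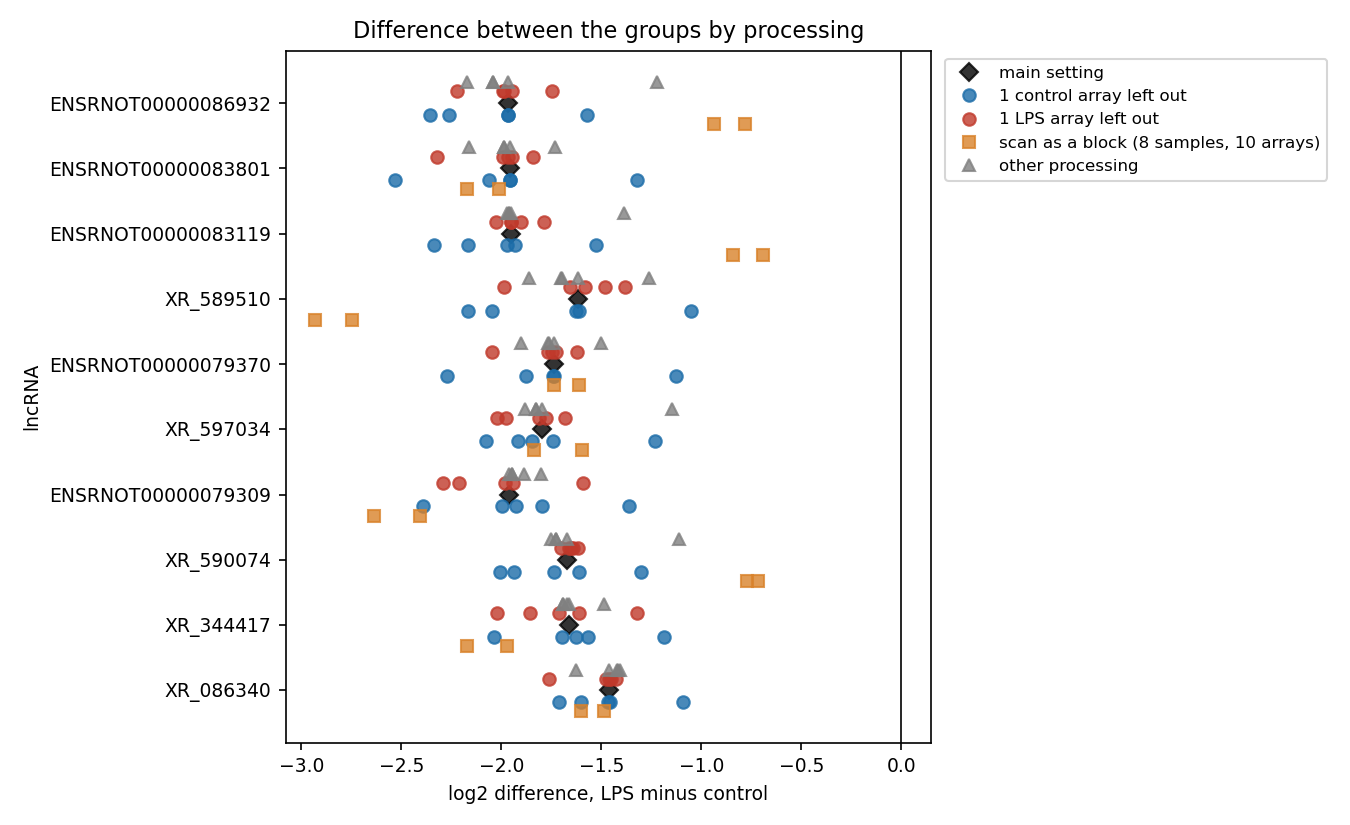
Log2 difference, LPS minus control (x axis), of each lncRNA (y axis) in the main setting (black), with 1 array left out (blue for control, red for LPS), with the scan as a block (orange) and with other processing (grey). All points lie below 0, and the orange points of ENSRNOT00000086932, ENSRNOT00000083119 and XR_590074 lie nearest to it, between -0.93 and -0.69.

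To compare how the lncRNAs varied between rats, the 4 samples of a group were centred on their mean. The residuals were then correlated over the 8 samples. These samples share the array platform and the scans, and the correlations are given without a p. Centring removes the difference between the group means, but it does not free the residuals from the choice of the list. A high control sample raises both its own residual and the difference that the list was chosen on. No r between unlisted lncRNAs is given beside these values, so whether the listed ones are more alike than others was not tested. Over the 36 pairs without XR_589510, Pearson's r ranged from 0.29 to 0.997, with a median of 0.75. Over the 9 pairs with XR_589510 it ranged from -0.49 to 0.02, with a median of -0.19.

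**Figure D3:**
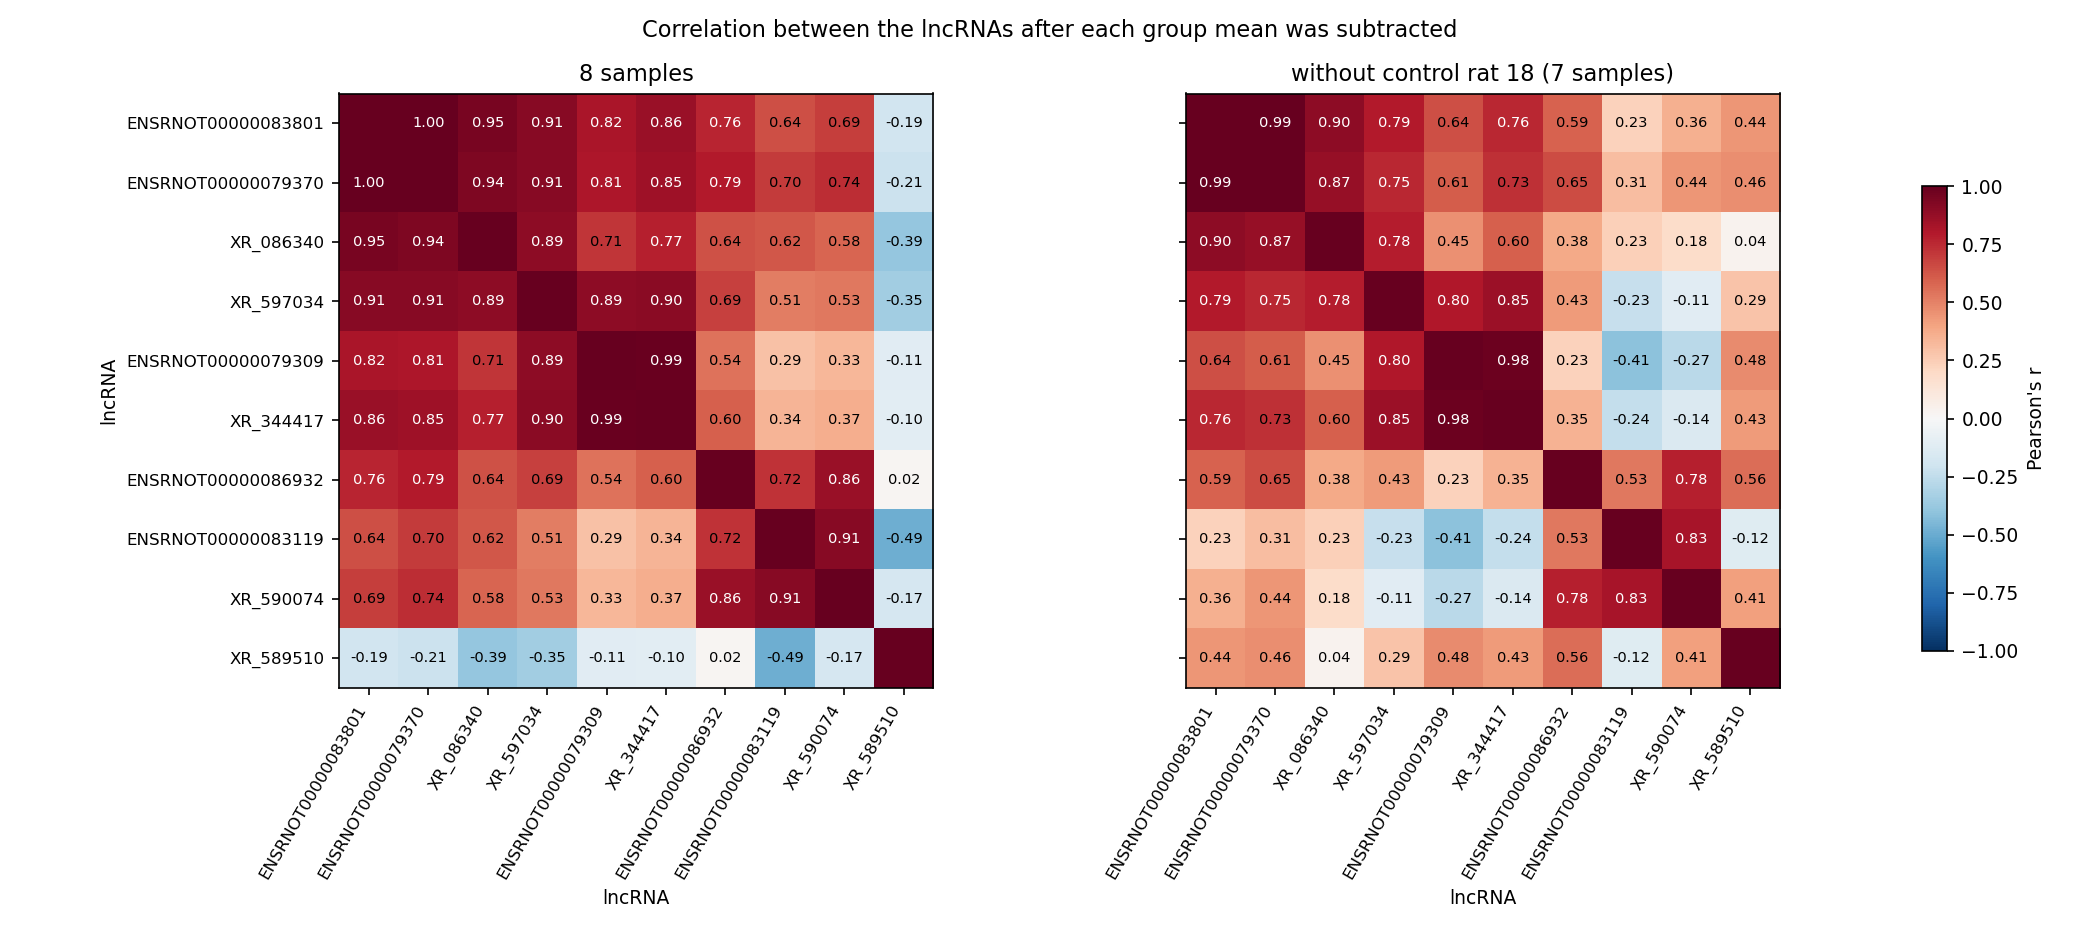
Pearson's r between the lncRNAs after subtraction of the group means (rows and columns: lncRNAs; colour: r), over 8 samples on the left and without control rat 18 on the right. The pairs ENSRNOT00000083801 with ENSRNOT00000079370 and ENSRNOT00000079309 with XR_344417 stay dark red in both panels, and the row of XR_589510 turns from mostly negative to mostly positive.

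ENSRNOT00000083801 and ENSRNOT00000079370, whose primers are printed above, were the closest pair, with r = 0.997 and Spearman's rho = 0.98, and r was 0.99 without control rat 18. ENSRNOT00000079309 and XR_344417 followed, with r = 0.99, rho = 0.98 and r = 0.98 without that rat. XR_086340 stood near the first pair, with r = 0.95 to ENSRNOT00000083801 (rho = 0.90, and r = 0.90 without rat 18). ENSRNOT00000083119 and XR_590074 gave r = 0.91 (rho = 0.90), which became 0.83 without rat 18. XR_597034 was close to both leading pairs, with r = 0.91 to ENSRNOT00000083801 and 0.90 to XR_344417. These pairs were singled out after their values had been seen.

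XR_597034 kept r = 0.79 to ENSRNOT00000083801 and 0.85 to XR_344417 without control rat 18. Without that rat, the median over the 36 pairs was 0.56 and the lowest value was -0.41, between ENSRNOT00000083119 and ENSRNOT00000079309. For XR_589510 the change ran the other way. Its median r with the other 9 rose from -0.19 to 0.43 without that rat, and its highest value was 0.56, with ENSRNOT00000086932. Control rat 18 was therefore the sample in which XR_589510 and the others lay furthest apart.

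Of 30 other transcripts that the study lists as most changed, the residuals of Mtfp1, Cox8b and Scd were most like the mean of the 10 lncRNAs over the 8 samples. Mtfp1, which encodes a protein of the inner mitochondrial membrane that takes part in mitochondrial fission, had r = 0.95 (rho = 0.93), and 0.92 without control rat 18. Cox8b, which encodes a subunit of cytochrome c oxidase found in brown fat and striated muscle, had r = 0.87 (rho = 0.88) and 0.95. Scd, which encodes a desaturase that makes monounsaturated fatty acids, had r = 0.86 (rho = 0.79) and 0.76. These transcripts were also put on their list for their difference between the groups, and all 3 are listed as down-regulated. Their r is therefore not free of that choice, and no r of unlisted features is given beside it.

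The least alike were XR_596552, ENSRNOT00000089798 and XR_349314, which are listed as up-regulated. Likeness did not follow the direction of change throughout, since the up-regulated lncRNA XR_594785 had r = 0.74, above the r = 0.57 of the down-regulated Ucp1. The order also rested on control rat 18. Without that rat, the down-regulated Nr0b2 rose from r = 0.60 to 0.92, level with Mtfp1, and Lrrc52 from 0.52 to 0.89, and the up-regulated S100a9 stood at 0.81, all above the 0.76 of Scd. XR_596552 ran nearly opposite to the mean of the 10, with r = -0.96 (rho = -0.95), and -0.92 without control rat 18. ENSRNOT00000089798 had r = -0.78 (rho = -0.86) and -0.64, and XR_349314 had r = -0.59 (rho = -0.64) and -0.32. In XR_596552, control rat 18 was the lowest of the control samples, with a log2 signal of 2.11, and control rat 16 was the highest, with 4.53.

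**Figure D4:**
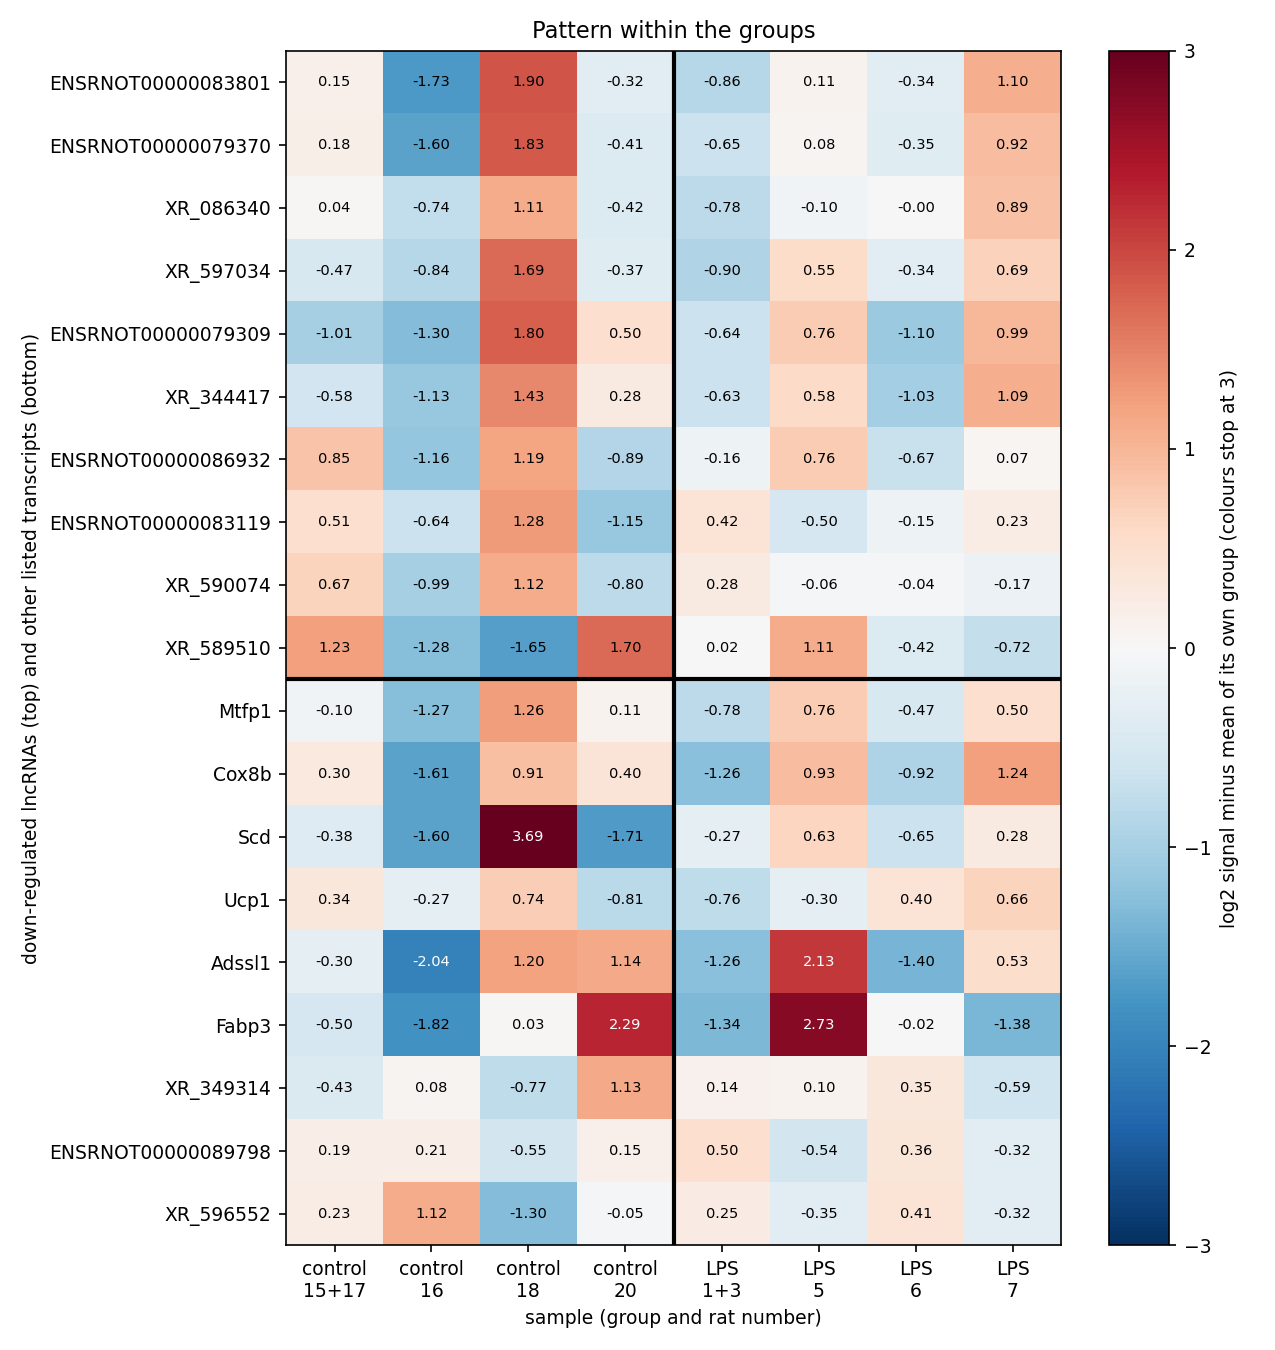
Log2 signal minus the mean of its own group (colour and printed value) for the 10 down-regulated lncRNAs (upper rows) and 9 other listed transcripts (lower rows) in each sample (columns). The column of control rat 18 is red for 9 of the 10 lncRNAs and for Mtfp1, Cox8b, Scd, Ucp1 and Adssl1. It is blue for XR_589510, XR_349314, ENSRNOT00000089798 and XR_596552, and close to the group mean for Fabp3.

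The likeness to Mtfp1 was not shared by all 10. ENSRNOT00000083801, ENSRNOT00000079370, ENSRNOT00000079309, XR_344417, XR_597034 and XR_086340 had r between 0.80 and 0.92 with Mtfp1, and between 0.64 and 0.89 without control rat 18. ENSRNOT00000086932 had r = 0.75 and 0.60, XR_590074 had 0.54 and 0.14, and ENSRNOT00000083119 had 0.38 and -0.18. XR_589510 had r = 0.04 over the 8 samples and 0.69 without that rat.

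Markers of other cell types were read beside the lncRNAs. Only transcripts in the study's lists of most changed transcripts carry a gene name here, so 2 of 5 brown adipocyte markers, 2 of 6 striated muscle markers and 2 of 4 myeloid markers could be read, and none of the 4 adipocyte, 4 vascular smooth muscle and 3 endothelial markers, so that the vessel wall itself was not checked. All 6 that could be read were well above background on all 10 arrays, and since the study listed them for their change, their difference between the groups was fixed by that choice. The brown fat and muscle markers were lower after LPS, like the lncRNAs, and the myeloid markers were higher. Cox8b, counted here with brown fat, is also found in striated muscle, so these markers do not fully separate the tissues. Ucp1, the uncoupling protein of brown fat, had log2 signals of 4.88, 5.34, 6.04 and 6.30 in LPS rats 1 and 3, 5, 6 and 7, and of 9.25, 8.64, 9.64 and 8.09 in control rats 15 and 17, 16, 18 and 20. The summed signal of Ucp1 and Cox8b, in units of the array's 75th percentile, ran from 34.1 to 105.2 in the LPS group and from 364.2 to 929.8 in the control group. That of Adssl1 and Fabp3, which work in the purine cycle and in fatty acid transport of striated muscle, ran from 2.01 to 28.5 and from 19.8 to 276.7. That of S100a8 and S100a9, calcium-binding proteins of neutrophils and monocytes, ran from 54.3 to 116.9 in the LPS group and from 1.23 to 8.22 in the control group.

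After the group means were subtracted, the brown fat markers differed from each other in their r with some of the lncRNAs, as did the muscle markers, whereas S100a8 and S100a9 gave similar values. Over the 10 lncRNAs, r with Cox8b ranged from 0.22 to 0.88 and r with Ucp1 from -0.53 to 0.86. It ranged from 0.02 to 0.85 with Adssl1 and from -0.43 to 0.65 with Fabp3, and from -0.12 to 0.69 with S100a8 and from -0.06 to 0.66 with S100a9. ENSRNOT00000079309 had r = 0.83 with Cox8b and 0.28 with Ucp1, and 0.85 with Adssl1 and 0.41 with Fabp3. XR_344417 had 0.88, 0.37, 0.84 and 0.34 with the same markers in turn. Without control rat 18, r with Ucp1 was -0.12 for ENSRNOT00000079309 and 0.05 for XR_344417. XR_086340 had r = 0.86 with Ucp1 and 0.75 with Cox8b, against 0.50 with Adssl1 and -0.01 with Fabp3. XR_589510 had its highest values over the 8 samples with S100a8 (r = 0.69), S100a9 (r = 0.66) and Fabp3 (r = 0.65), and -0.53 with Ucp1. That order changed when control rat 18 was left out. The r of XR_589510 was then 0.81 with Fabp3 and 0.76 with Adssl1 (0.37 over the 8 samples), against 0.69 with S100a8 and 0.65 with S100a9. Without control rat 18, the highest r of any lncRNA with S100a8 was 0.88, reached by ENSRNOT00000086932 and XR_590074, which had 0.53 and 0.43 over the 8 samples. The part of the other cell types in the lower signal of the 10 lncRNAs was not tested.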

How the data were processed

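The aortic RNA of 5 LPS and 5 control rats was hybridised to 1 array each, by the study's account. The sample labels gave the group and a number, read here as that of the rat. The authors deposited scanner files with an intensity per spot, corrected for background within its array by Agilent Feature Extraction (version 11.0.1.1), and a table of processed log2 values of the same arrays. Its scale is log2 and its median was 5.85 on every array, its single-colour values carry no ratio direction, and the normalisation was not given in the sources used here. It served as an alternative, with correlations of at least 0.990 to the scanner values across features. The log2 differences of the lncRNAs were nearly the same with it as with quantile normalisation, with a median of -1.80 in both. These alternatives are therefore hardly separate.

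Control spots and outlier spots were left out, log2 intensity minus the array's 75th percentile was taken, and the spots of a feature were averaged. Per array, between 79.6% and 92.6% of features were well above background, and precision is limited by how few arrays there were. Features well above background on at least 5 of 10 arrays were fitted with limma (version 3.58.1, R 4.3.3), which was tested on simulated data, with Benjamini-Hochberg adjustment over mRNA and lncRNA features. Near-identical arrays were averaged. The labels only number the replicates, and that each is 1 rat is taken from the study.

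All lncRNAs on the study's list are described, and of the other listed transcripts, by rule, the 3 most and 3 least like their mean and the cell type markers. XR_594785, Nr0b2 and Lrrc52 were named after their values were seen. XR_589510 is on that list and was included. The list, the marker genes and the settings were chosen with earlier results of these data known. Alternatives were 10 separate arrays, quantile normalisation, normexp (offset 50, on the median intensity), the authors' values, all spots, other filters, the scan as a block, the methods' t-test and each array left out. The scan was taken from the scan identifier in the file headers. Gene names and the promoter came from RefSeq (GRCr8), and primers from the study's supplement.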

Additional observations from a re-analysis of the deposited data

How the results depend on the processing

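The log2 differences of the 10 lncRNAs stayed below 0 in every alternative that was run. Since the list was chosen for a lower signal on these same arrays, nothing is read from that sign. The median difference was -1.77 and ranged from -2.12 to -1.31 with 1 array left out and from -1.88 to -1.40 otherwise. With the scan as a block it was -1.60, and over 10 arrays, a setting added after the data were seen, -1.79. The block, which rests on control rat 20 alone, moved ENSRNOT00000086932 to -0.78, ENSRNOT00000083119 to -0.84 and XR_590074 to -0.77 (-0.93, -0.69 and -0.71 over 10 arrays). The cause was not tested. The same block moved XR_589510 the other way, from -1.62 to -2.75 (-2.93 over 10 arrays). With normexp the median was -1.40, with ENSRNOT00000086932 at -1.22, XR_597034 at -1.15 and XR_590074 at -1.11. Without control rat 18, ENSRNOT00000079370 was at -1.13, and without control rat 20, XR_589510 was at -1.05.

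Of the 10, 4 had all LPS samples below all control samples (1.18% of the tested lncRNA features), between 4 and 7 with 1 array left out (0.925% to 3.77%) and between 3 and 5 otherwise (0.71% to 1.81%). The number was 7 without LPS rat 7 (1.66%) and 7 without control rat 16 (3.77%). limma called 0 of the 10 on the 8 samples (0.0134% of the tested lncRNA features were called lower), with 9 at an unadjusted p below 0.05 (2.02%). It called 3 with 10 arrays (0.228%) and 0 in every fit that left out an array (at most 0.0134%). With the scan as a block it called 0, with 1 at an unadjusted p below 0.05 (1.29%). The methods' t-test called 0 after adjustment and, without it, 5 on the 8 samples and 10 on 10 arrays (1.07% and 1.98%), the last also a setting added later.

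Control rat 18 was the highest control sample for 9 lncRNAs in every alternative that kept it. The other counts of order moved. Control rat 16 was the lowest control sample for 8 lncRNAs in the main setting and for 6 to 9 in the alternatives that kept it. LPS rat 7 was the highest LPS sample for 6 in the main setting and for 5 to 7 in the alternatives. The lowest of both counts, 6 and 5, came with normexp. Mtfp1 kept r between 0.91 and 0.97 with the mean of the 10, and XR_596552 between -0.97 and -0.90. At least 5 of the 6 most and least alike transcripts were shared with the main setting. No paired analysis was possible because the groups share no replicate numbers. Groups of 4 samples with SDs of up to 1.71 log2 units, and a single scan with both groups, limit these values.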
